A study of Homo sapiens with 2 samples.

Results

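Small Cajal body RNAs and related small noncoding RNAs were examined in A549 cells, a widely used line of epithelial shape that came from a human lung adenocarcinoma, after 4 h of static or stretch culture. Members were all genes whose array annotation symbol began with SCARNA, VTRNA or SNAR, those of the small nucleolar, spliceosomal, Y and signal recognition particle RNA families, and RMRP, RPPH1 and TERC. This gave 38 genes on 44 probe sets, of 14884 named genes on 16098 named probe sets. They were 23 small Cajal body RNAs, 8 snaR genes, 4 vault RNA genes and the single genes TERC, RMRP and RPPH1. Symbols of the small nucleolar, spliceosomal, Y and signal recognition particle families occurred on 0 named probe sets, so box C/D and box H/ACA RNAs are represented here by Cajal body RNAs and TERC alone. The series holds 1 array of static cells and 1 array of stretched cells, so there are no replicates. The title of the stretched sample writes the line as A594, and its source name gives A549. Both RNAs were prepared with the same spin-column kit (RNeasy Mini), and no genetic change or added agent was named for either culture. Of the 38 members, 26 are under 200 bases long, and how far each preparation kept such short RNAs was not tested. Neither the strength and rate of the stretch nor the number of cultures behind each RNA is given in the sources used here.

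Small Cajal body RNAs guide the chemical modification of the spliceosomal RNAs in Cajal bodies, small structures of the nucleus. Box C/D RNAs direct ribose methylation with the protein fibrillarin, box H/ACA RNAs direct pseudouridylation with dyskerin, and mixed RNAs carry both kinds of box. Most lie in introns of host genes and are released when the spliced intron is debranched and trimmed, while a few have promoters of their own. TERC, the telomerase RNA, ends in an H/ACA domain and also passes through Cajal bodies. RMRP and RPPH1 are the RNAs of RNase MRP and RNase P, which process ribosomal and transfer RNA precursors. The snaR RNAs are short primate RNAs made by RNA polymerase III, and vault RNAs belong to the large vault ribonucleoprotein.

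Signals are given as deposited, on the log2 scale, and a difference is stretch minus static throughout. A gene was counted when the higher of its 2 signals reached 2.52, the median of all values, which 10981 named genes and 37 of the 38 members did. The exception was VTRNA2-1. The background bound of 4.56 is the 95th percentile of the signals of 24 genes of unrelated tissues, such as GFAP and PRM1. Among these 24 genes the difference had a robust SD of 0.32, and 0 differed by 2-fold, but their median signal was 2.25, so they give no spread for stronger signals. Named genes leaned upward, with a median difference of 0.20. Centring on reference genes, used below, subtracts the median difference of 13 such genes, GAPDH and PPIA among them. That median was 0.40, in a range from -0.57 to 1.72. The 5 measured epithelial markers did not move together. The keratins KRT18 (10.29 and 11.00), KRT8 (4.60 and 5.47) and KRT7 (5.41 and 7.56) were higher in stretched cells, KRT19 read 3.77 and 3.78, and EPCAM was lower at 5.30 and 4.71. The endothelial markers PECAM1 (1.99 and 1.86) and VWF (3.04 and 2.52) lay under the background bound.

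Most small Cajal body RNAs had lower signals on the stretched array. Of all 37 counted members, 13 were at least 2-fold lower under stretch, beside 2.5% of all named genes counted, and 2 were at least 2-fold higher, beside 12.3%. The median difference of the members was -0.83, with a range from -6.40 to 1.83. The 23 small Cajal body RNAs made up 12 of the 13 lower members and had a median difference of -1.03. Their median signal was 7.28 in static and 5.03 in stretched cells, and 20 of the 23 had a negative difference. They also held 6 of the 10 lowest places among the 10981 genes. Of the 18 with a static signal at or above the background bound, 11 were at least 2-fold lower, beside 2.77% of the 4868 named genes and 7.17% of all 10868 probe sets, named or not, with such a signal. At a static signal of 8 or more, 7 of 14 members were at least 2-fold lower, beside 2.74% of the 438 other named genes and 9.49% of 1729 probe sets. At 10 or more, 3 of 6 members were, beside 2 of the 40 other named genes (10.9% of all 46 with the members) and 9.27% of 453 probe sets. These cuts used the static signal alone, which favours negative differences in members and other genes alike. The cut at the background bound left out SNAR-F and SCARNA9L, the 2 members at least 2-fold higher. Of the 29 members it kept, 0 were higher by as much, beside 12.3% of the 4868 named genes. With 1 array per condition these counts describe the 2 arrays and carry no test, and in RNA of a whole culture fewer cells with an RNA and less RNA per cell cannot be told apart.

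**Figure D1:**
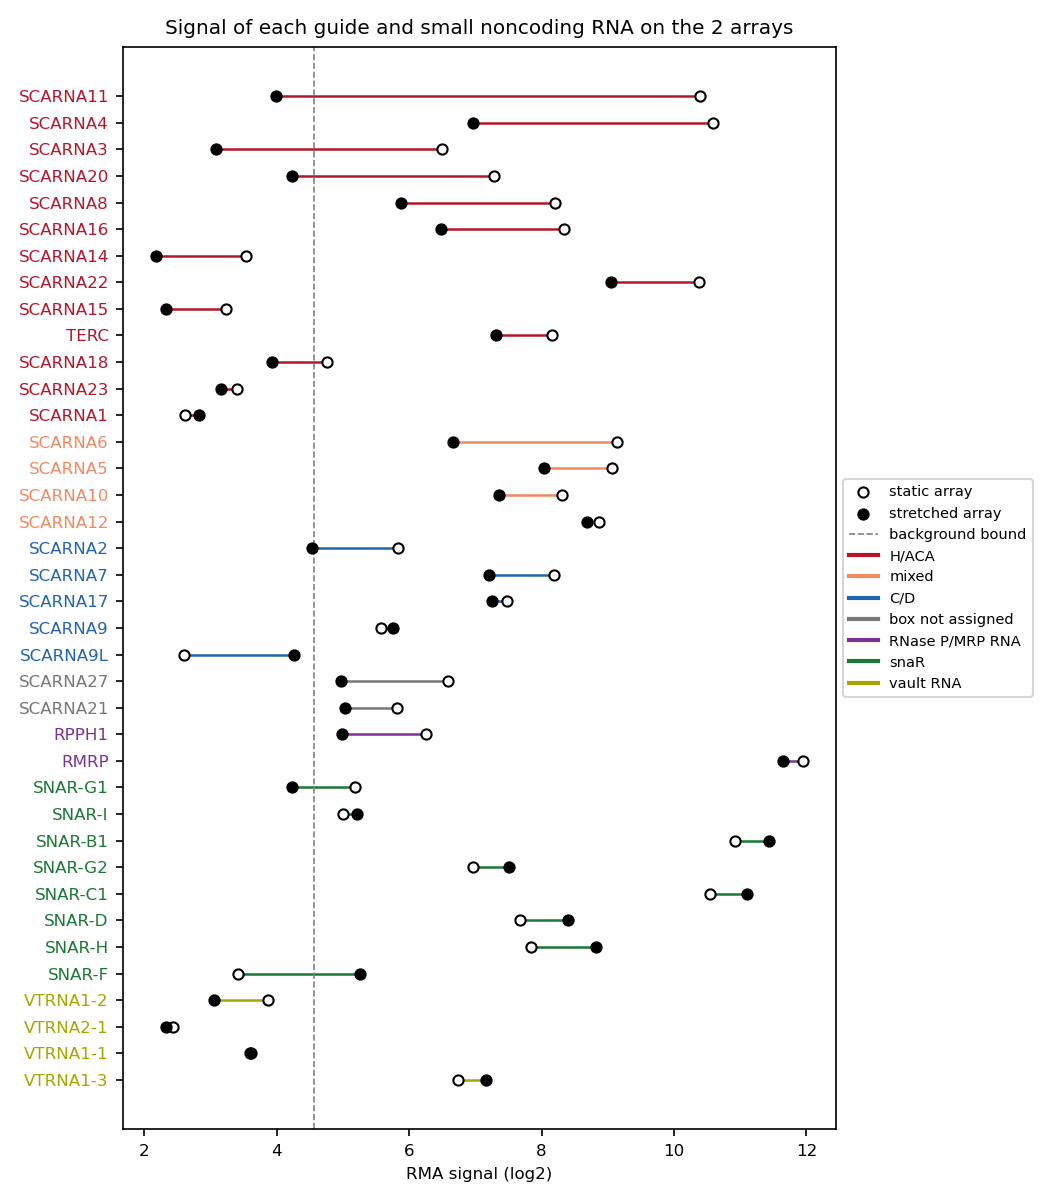
RMA signal (log2) of each of the 38 genes on the static array (open circles) and the stretched array (filled circles), 1 array each, grouped and coloured by class and ordered within a class by the difference. The dashed line is the background bound of 4.56. Static signals lie to the right of stretched ones in nearly every H/ACA and mixed RNA, and to the left in 7 of 8 snaR genes.

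The box H/ACA RNAs held the lowest values. SCARNA11, which guides pseudouridylation of the U5 spliceosomal RNA, read 10.39 in static and 3.99 in stretched cells. This difference of -6.40 was the lowest of all 53617 probe sets. The stretched signal lay under the background bound, and against that bound the static signal was at least 56.9-fold higher. SCARNA4, a guide of the U2 spliceosomal RNA, read 10.59 and 6.96, a difference of -3.63 with both signals above the bound. SCARNA3 read 6.50 and 3.08 (-3.42), and SCARNA20, a guide of the minor spliceosome's U12 RNA, read 7.28 and 4.23 (-3.05). Their stretched signals were under the bound too, against which the static signals were at least 3.84-fold and 6.59-fold higher.

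SCARNA8, another U2 guide, read 8.20 and 5.87 (-2.33), and SCARNA16, a U1 guide, read 8.33 and 6.48 (-1.85). SCARNA22, known for its overexpression in myeloma with a rearranged NSD2 locus, read 10.37 and 9.05 (-1.32). All 3 were above the background bound on both arrays. SCARNA18 stood at 4.75 and 3.92 (-0.83). The other H/ACA Cajal body RNAs lay under the bound on both arrays. Among these, SCARNA14 read 3.53 and 2.17 (-1.36), SCARNA15 read 3.23 and 2.33 (-0.90), SCARNA23 read 3.40 and 3.15 (-0.25) and SCARNA1 read 2.62 and 2.82 (0.20). SCARNA1 was the only H/ACA RNA with a positive difference, and that sign turned after centring on reference genes (-0.20). TERC, the H/ACA RNA with its own promoter, read 8.15 and 7.31 (-0.84). Together 8 of the 13 H/ACA RNAs were at least 2-fold lower, and 0 were higher by as much.

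All 4 mixed RNAs had negative differences and signals above the bound on both arrays. SCARNA6 read 9.14 and 6.66 (-2.48) and its neighbour SCARNA5, in the same host gene, read 9.06 and 8.03 (-1.03). SCARNA10, the U85 RNA that guides both kinds of modification on U5, read 8.31 and 7.35 (-0.96). SCARNA12, also a U5 guide, read 8.86 and 8.69 (-0.17). The values thus ran from near 0 to beyond 5-fold lower within this class (5.58-fold for SCARNA6).

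The box C/D RNAs were less uniform. SCARNA2, a U2 guide, read 5.83 and 4.53 (-1.30), with the stretched value just under the background bound. SCARNA7, a U1 guide, read 8.19 and 7.20 (-0.99), and SCARNA17, which guides U12 and U4, read 7.48 and 7.25 (-0.23). SCARNA9, a U2 guide, read 5.58 and 5.76 (0.18), a positive value that became -0.18 after a loess on level and -0.22 after centring on reference genes. SCARNA9L, a copy resembling SCARNA9, read 2.59 and 4.26 (1.67), under the background bound both times, and the signals of these near copies may not be separable. It was the 1 small Cajal body RNA at least 2-fold higher. For 2 RNAs the box class was not assigned. SCARNA27 read 6.59 and 4.97 (-1.62) and SCARNA21 read 5.81 and 5.03 (-0.78).

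By class, the median difference was -1.36 for the 13 H/ACA RNAs, -0.995 for the 4 mixed RNAs and -0.23 for the 5 C/D RNAs. The H/ACA median thus lay 1.13 below the C/D median (a difference of -1.13). Restricted to static signals at or above the background bound, the medians were -2.33 over 9 H/ACA, -0.995 over 4 mixed and -0.61 over 4 C/D RNAs. That cut used the static signal alone, which favours negative differences, and left out SCARNA9L and 4 H/ACA RNAs. The ranges overlapped: H/ACA values ran from -6.40 to 0.20, mixed values from -2.48 to -0.17 and C/D values from -1.30 to 1.67. Without SCARNA9L the H/ACA and C/D medians differed by -0.75. In this set, class went with length. The 12 H/ACA Cajal body RNAs were 125 to 187 bases long, while mixed RNAs measured 266 to 330 and C/D RNAs 330 to 421 bases, so box class and length cannot be told apart among the Cajal body RNAs.

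RNAs with promoters of their own did not share the lean of the intronic ones as a whole. Members were called intronic when they lay within the span of a longer gene and had no known promoter of their own. SCARNA17 lies within the span of SNHG22 but was counted by its own promoter. The 21 intronic members, all Cajal body RNAs, had a median difference of -1.03, with 11 lower and 1 higher by 2-fold or more. The 16 counted members with their own promoter had a median of 0.12, with 2 lower and 1 higher by 2-fold or more, and the sign of this median turned after a loess on level (-0.08), quantile normalization (-0.15) and centring on reference genes (-0.29). The independently transcribed guides SCARNA2, SCARNA17 and TERC, which polymerase II makes, all had negative values with a median of -0.84. Among guide RNAs only, the intronic and independent medians therefore differed by -0.19, against -1.14 over all members.

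Of the polymerase III transcripts, RMRP read 11.95 and 11.65 (-0.30). RPPH1 read 6.25 and 4.98 (-1.27), the only one of them at least 2-fold lower. The snaR genes leaned the other way. SNAR-F read 3.42 and 5.25 (1.83), starting under the background bound, and was the only snaR gene at least 2-fold higher by its brightest probe set. By the mean of all probe sets SNAR-C1 was as well. SNAR-H read 7.84 and 8.82 (0.98), SNAR-D read 7.68 and 8.40 (0.72) and SNAR-G2 read 6.97 and 7.51 (0.54). SNAR-B1 read 10.92 and 11.43 (0.51), SNAR-C1 read 10.54 and 11.10 (0.56) and SNAR-I read 5.00 and 5.21 (0.21). SNAR-G1 was the exception, at 5.18 and 4.23 (-0.95). The 8 snaR genes had a median of 0.55, which was 0.15 after centring on reference genes. They are near-identical copies that the array may not separate. Of 5 probe sets assigned to SNAR-C1, 3 gave the same 6.60 and 8.20 and the other 2 the same 10.54 and 11.10, so the snaR values are not separate observations.

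The vault RNAs showed no shared direction. VTRNA1-3 read 6.74 and 7.16 (0.42), the only one above the background bound. VTRNA1-1 read 3.59 and 3.61 (0.02) and VTRNA1-2 read 3.87 and 3.05 (-0.82). VTRNA2-1, which lay under the level filter and is known also as a regulator of the kinase PKR, read 2.43 and 2.33 (-0.10).

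A split at 200 bases did not separate the members. The members under 200 bases had a median difference of -0.82 (25 genes) and those of 200 bases or more one of -0.90 (12 genes). Within the shorter group, the 14 Cajal body RNAs, which are 125 to 187 bases long, had a median of -1.49, with 9 at least 2-fold lower. The 11 counted snaR and vault RNAs, which are 88 to 128 bases long, had a median of 0.51 with 0 at least 2-fold lower. These lengths overlap only in part. Among Cajal body RNAs the median was -0.96 for the 9 of 200 bases or more. Other short genes leaned lower than long ones. The 429 counted microRNA genes, whose entries are hairpins, had a median of -0.10 with 15.4% at least 2-fold lower, although for 293 of them both signals were under the background bound. For other genes the length is the span of the gene, introns included. The 16 other counted genes under 500 bases had a median of -0.42 and the 10499 longer ones one of 0.21.

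**Figure D2:**
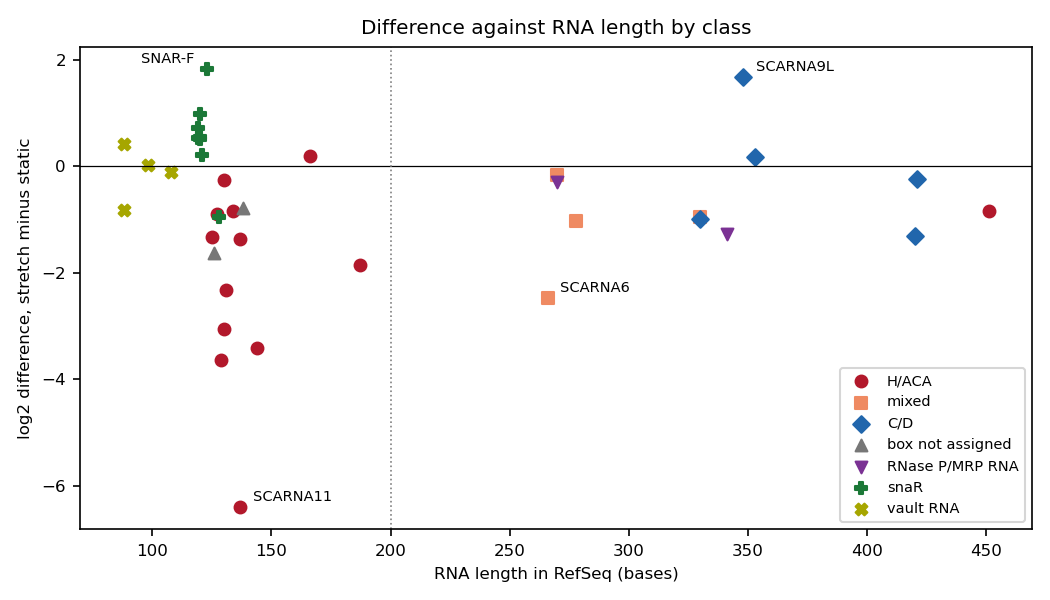
Log2 difference (stretch minus static) of the 38 genes against RNA length in bases, with 1 point per gene, coloured and shaped by class. The dotted line marks 200 bases. The snaR genes measure 119 to 128 bases and lie mostly above 0, and the H/ACA Cajal body RNAs measure 125 to 187 and lie mostly below. Their lengths overlap only in part. In the shared lengths SCARNA22 (-1.32), SCARNA15 (-0.90) and SNAR-G1 (-0.95) all lie below 0.

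Intronic guides are in general cut from the transcript of their host, so the hosts were examined next. Each of the 21 intronic members lay within the span of a longer gene in the RefSeq gene table, 20 host genes in all, and 11 of these had a named probe set, covering 12 members. Strand and exons were not used in finding the hosts, so a place within an intron was not checked. All 12 RNAs had a lower difference than their host, by a median of -2.35 and a range from -6.94 to -0.14. Of the 11 hosts, 10 had positive differences, beside 6954 of the 10981 counted named genes. Their median was 0.54, beside 0.20. By 2-fold or more, 3 hosts were higher, beside 12.3% of counted named genes, and 0 were lower, beside 2.5%. The static signal of 4 hosts, among them 2 of those 3 (ATG16L1 and TIPIN), lay under the background bound, and 7 hosts were at or above it on both arrays. After either a loess on level or centring on reference genes, 8 of the 11 were positive. The sign of RNA and host was opposite in 10 of 12 pairs.

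ATG16L1, an autophagy factor, read 4.14 and 7.13 (2.99), while SCARNA6 and SCARNA5 in the same gene stood at -2.48 and -1.03. CHD4, a chromatin remodelling ATPase, read 6.95 and 7.49 (0.54) around SCARNA11. KHDC4, an RNA-binding protein, read 5.85 and 6.64 (0.79) around SCARNA4. SNHG20, a noncoding host, read 4.18 and 4.97 (0.79) around SCARNA16. TIPIN, a replication fork protein and host of SCARNA14, read 4.06 and 5.74 (1.68).

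KPNA4, an importin and host of SCARNA7, read 6.16 and 7.23 (1.07). NSD2, a histone methyltransferase and host of SCARNA22, read 5.03 and 5.54 (0.51). PHB2, a prohibitin and host of SCARNA12, read 7.56 and 8.04 (0.48). The remaining hosts were close to their RNAs or to 0. CHD3, with SCARNA21, stood at 0.13, CEP295, with SCARNA9, at 0.32 and TMEM167A, with SCARNA18, at -0.29. Probe sets of a host are in general designed to its exons, and whether each pair shares a primary transcript was not tested.

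**Figure D3:**
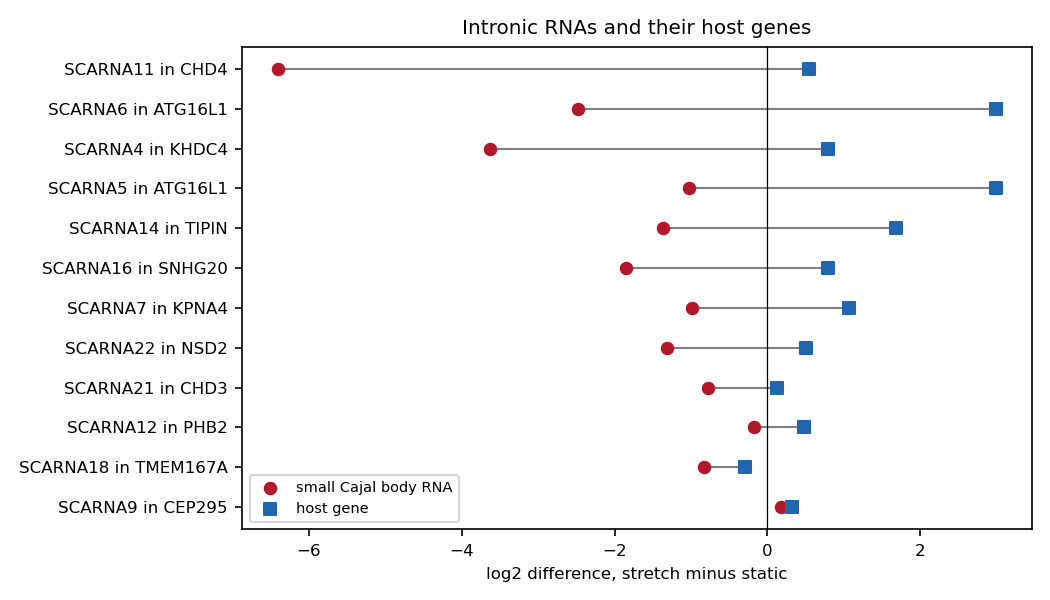
Log2 difference (stretch minus static) of 12 intronic small Cajal body RNAs (circles) and their 11 measured host genes (squares), ordered by the gap between them, with 1 array per condition. Every circle lies to the left of its square. ATG16L1 appears beside both SCARNA6 and SCARNA5.

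Since intronic guides are in general transcribed from the promoter of their host, the host promoters were read from the RefSeq promoter sequences of GRCh38.p14, in which 19 of the 20 hosts were found. The heptamer CCGGAAG contains GGAA, the core of sites for ETS-family factors, and other sequences with GGAA were not counted or marked. The heptamer or its reverse complement CTTCCGG occurred within 250 bases before the start of 8 of the 19. Among protein-coding genes it was present in 7 of 17 hosts (41.2%) and in 14.0% of all 15842 in the table. A gene counted when any of its listed starts had a match. The motif was picked after these sequences had been read, so the 2 shares are not an independent comparison. A match is not evidence of binding. Among hosts of RNAs at least 2-fold lower, ATG16L1, CHD4, HAUS6, KHDC4 and SNHG20 carry the motif, and COP1, USP32, EEF1E1, TIPIN and NSD2 do not. Among the other hosts found, PHB2, POLA1 and TMEM167A carry it, and CEP295, CHD3, EIF1AX, NCAPD2, PPP1R8 and SNHG21 do not. The 150 bases before the start are shown for 3 of the hosts that carry it. They are written 5′ to 3′ on the gene's strand, with the motif in capitals. They lie at chr2:233251523-233251672 on the plus strand for ATG16L1, chr1:155934414-155934563 on the minus strand for KHDC4 and chr17:77088493-77088642 on the plus strand for SNHG20.
ATG16L1: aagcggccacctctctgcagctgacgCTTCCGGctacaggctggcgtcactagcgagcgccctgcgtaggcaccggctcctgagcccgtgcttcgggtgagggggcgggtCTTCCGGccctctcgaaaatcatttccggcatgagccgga
KHDC4: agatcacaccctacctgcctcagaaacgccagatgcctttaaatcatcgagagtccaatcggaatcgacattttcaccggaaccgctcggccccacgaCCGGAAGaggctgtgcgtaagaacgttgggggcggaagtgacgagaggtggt
SNHG20: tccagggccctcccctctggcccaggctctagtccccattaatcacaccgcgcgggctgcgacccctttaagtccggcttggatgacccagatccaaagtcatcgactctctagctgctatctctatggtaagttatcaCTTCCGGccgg
The motif stands at 2 places in the ATG16L1 stretch and at 1 place in each of the others.

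Genes of the proteins that bind, build or trim these RNAs were not lower as groups. Counts are given at 1.5-fold, which 27.7% of all counted named genes passed upward and 8.9% downward. Of the 3 measured core C/D proteins, NOP58 read 9.10 and 9.84 (0.74), the methyltransferase FBL 8.86 and 9.23 (0.37) and SNU13 4.11 and 3.97 (-0.14). Of the 3 measured core H/ACA proteins, NHP2 stood at 0.39, GAR1 at 0.33 and NOP10 at -0.20, so 0 passed 1.5-fold either way. The medians of these lists, 0.37 and 0.33, became -0.03 and -0.07 after centring on reference genes.

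Among 10 measured assembly factors, 4 were higher by 1.5-fold or more, 0 were lower and the median was 0.43. NOPCHAP1, a chaperone of C/D assembly, read 4.69 and 6.57 (1.88), and NOLC1, the nucleolar and Cajal body phosphoprotein Nopp140, read 6.67 and 8.06 (1.39). The helicase RUVBL2 stood at 1.37 and the H/ACA assembly factor NAF1 at 0.78. Of 18 Cajal body factors, 8 were higher by 1.5-fold or more, 0 were lower and the median was 0.56. However, 10 had the static signal and 6 had both signals under the background bound. GEMIN4 of the SMN complex read 4.20 and 6.58 (2.38), ZC3H8 stood at 1.23, ICE1 at 1.17 and GEMIN5 at 1.05. COIL, the coilin that scaffolds Cajal bodies, read 4.02 and 5.05. The static signals of GEMIN4, ZC3H8 and COIL lay under the background bound.

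Of 23 genes of lariat debranching, trimming and nuclear decay, 10 were higher by 1.5-fold or more, 0 were lower and the median was 0.55. The 4 furthest were subunits of the nuclear exosome, which degrades and trims RNA from the 3′ end. EXOSC8 read 4.36 and 6.04 (1.68), EXOSC2 stood at 1.56, EXOSC5 at 1.46 and EXOSC7 at 1.41. The static signals of EXOSC8 and EXOSC7 lay under the background bound. The debranching enzyme DBR1 read 5.43 and 6.01 (0.58), and the trimming nuclease PARN read 7.96 on both arrays.

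Integrator genes, with the snRNA gene activator ZNF143, had 6 of 12 members at least 1.5-fold higher and 0 lower, led by INTS5 (0.96), INTS1 (0.89), INTS7 (0.87) and INTS9 (0.86). Of 9 polymerase III genes, 5 were at least 1.5-fold higher and 0 lower, with POLR3E at 1.70, POLR3B at 0.95, POLR3C at 0.93 and TBP at 0.86. Proteins bound to polymerase III and telomerase RNAs divided, with 6 of 17 at least 1.5-fold higher and 3 lower. The major vault protein MVP read 4.83 and 6.87 (2.04), the RNase P proteins RPP40 and RPP14 stood at 1.48 and 1.32 and SRP19 at 1.21. The 3 lower ones were RPP25 (-0.99), the 7SK-binding inhibitor HEXIM1 (-0.73) and RPP21 (-0.66). Of 12 measured Sm and other proteins of the spliceosomal particles, none of them an LSm protein, 6 were at least 1.5-fold higher and 1 lower. SNRPD3 stood at 0.99, SNRPB at 0.93 and SNRPD1 at 0.82, and SNRPD2 was the lower one at -0.80. Of the higher genes named here, INTS5, INTS9, POLR3E, RPP40, RPP14 and SRP19 had static signals under the background bound. None of these 9 lists held a gene at least 2-fold lower, beside 2.5% of all counted named genes. Centring on reference genes brought RPP25 (-1.39), SNRPD2 (-1.20), HEXIM1 (-1.13) and RPP21 (-1.06) past 2-fold lower. After centring on reference genes the medians of the 9 lists ran from -0.12 to 0.31. Those of the partners of polymerase III RNAs and of both core lists were below 0. TBP and SNRPD3 are themselves among the reference genes.

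**Figure D4:**
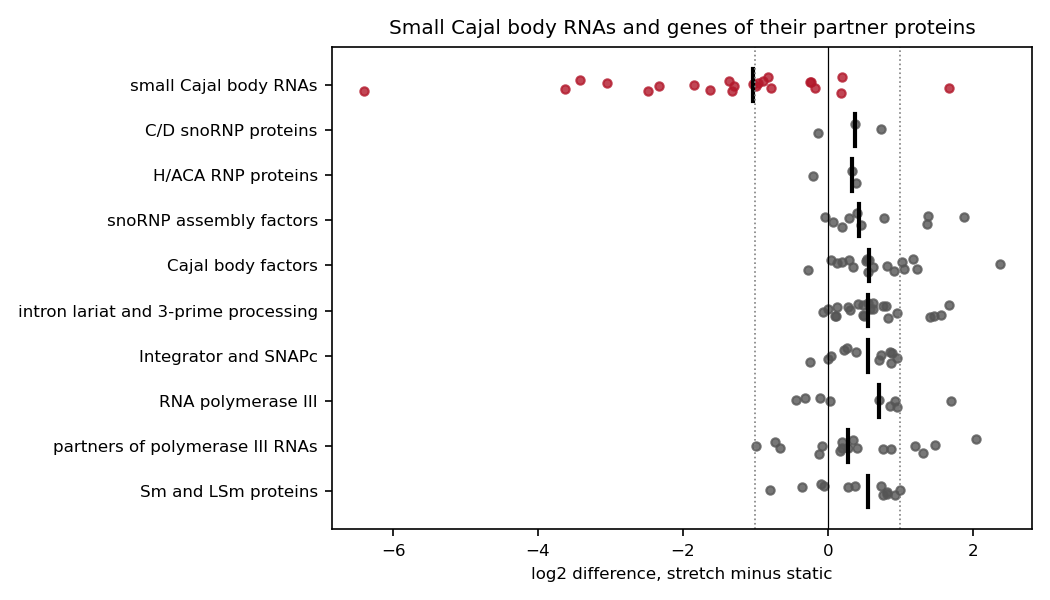
Log2 differences (stretch minus static) of the 23 small Cajal body RNAs (red) and of counted genes in 9 lists of partner proteins (grey), with 1 point per gene, the list median as a black bar and dotted lines at 2-fold. The Cajal body RNAs have a median of -1.03, and the protein lists have medians from 0.28 to 0.71, or from -0.12 to 0.31 after centring on reference genes.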

How the data were processed

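The deposited values are log2 signals of 2 arrays, made by RMA (robust multi-array average) per the submitters' processing notes. No source used here names the software, its version or the chip definition. That the deposited scale is log2 was inferred from the range of the values. Sorted values of the arrays differed by up to 0.45, so how they were normalized to each other is unknown. Probe sets were named through the platform annotation and, for all 38 members, matched by gene identifier to the RefSeq gene table of GRCh38.p14. That table gave lengths, as the span from start to end of a gene with any introns. The other 37519 probe sets are unnamed. The probe set with the highest mean stood for a gene.

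Box class, promoter type and target came from general knowledge. For hosts, SNHG genes were preferred, then protein-coding genes. This choice, the targets, the motif and 6 of the alternatives were added after the data were seen, and the members and lists were chosen with earlier results of these data known. Named genes were all members counted by class, their measured hosts and up to 4 genes per list with the largest differences. COIL, DBR1, PARN and the lower genes of the lists were named after their values were seen. Summaries were tested on simulated data. No test across samples exists with 1 array per condition, and the number of arrays limits the precision. Alternatives were other level filters, normalizations, probe set summaries and thresholds. Calculations used Python 3.11.15, numpy 2.4.6, pandas 2.3.3 and statsmodels 0.14.6.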

Additional observations from a re-analysis of the deposited data

How the results depend on the processing

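No paired analysis was possible because each condition has 1 array, and for the same reason no replicate could be left out. Of 119 alternative values, 73 stayed within 0.1 (medians) or 1.5 times (counts) of the reported one, 44 moved further and 2 changed sign. Some of the 73 could not move by construction. Subtracting 1 constant from an array cancels in the gaps between groups. Each Cajal body RNA has 1 probe set, so other probe set summaries leave its value unchanged. Dropping the level filter adds only VTRNA2-1. The count of lower members holds no snaR or vault RNA, so leaving those out cannot change it. For each moved value the cause was not tested, other than what its construction shows. Members at least 2-fold lower numbered 13, against 21 after centring on reference genes, which lowers each difference by 0.40, 21 at 1.5-fold and 8 at 3-fold. Members at least 2-fold higher numbered 2, against 1 when genes under the background bound were left out, 5 with each probe set counted, 0 with 1 entry per multi-copy family and 4 at 1.5-fold. The members' median of -0.83 became -1.12 after quantile normalization, -1.06 after loess, -1.23 after reference centring, -0.30 with each probe set counted and -0.96 with 1 entry per family. The Cajal body RNA median of -1.03 became -1.30 and -1.31 under stricter level filters (the upper quartile of all values and the background bound), -1.28 after quantile normalization, -1.30 after loess, -1.43 after reference centring and also as a mean, and -1.17 with 1 entry per family. The mixed RNA median of -0.995 became -1.23, -1.28 and -1.40 under those 3 normalizations and -1.16 as a mean. The H/ACA minus C/D gap of -1.13 became -2.10 and -1.72 under the stricter filters, -0.92 after quantile normalization, -0.98 after loess, -0.75 with 1 entry per family and without SCARNA9L, -1.86 as a difference of means, -1.38 without TERC and -1.72 for static signals at or above the bound. The intronic minus independent gap of -1.14 became -1.64 and -1.78 under the stricter filters, -1.56 with each probe set counted, -0.88 with 1 entry per family, -1.50 as a difference of means and -0.19 among guide RNAs only. Members minus hosts, -2.35, became -2.06 under both stricter filters and -2.72 as a mean. The median of members under 200 bases minus that of longer ones, 0.08, became 0.23 after quantile normalization, 0.35 after loess and 0.92 with each probe set counted, and changed sign to -0.15 with 1 entry per family and to -0.30 as a difference of means, so it has no firm direction. RMA values carry no detection calls. Signals under the background bound limit 5 static and 10 stretched values of the 23 Cajal body RNAs.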

Other observations

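Cajal body RNAs were also grouped by the spliceosomal RNA assigned as their target, after the values were seen. Every target group included lower values. SCARNA3, SCARNA5, SCARNA6, SCARNA9L, SCARNA18, SCARNA22, SCARNA23 and SCARNA27 were given no target, so the groups may be incomplete. The 7 guides of U2 had a median difference of -1.30 and a range from -3.63 to 0.20, with 4 at least 2-fold lower. The 3 guides of U5 had a median of -0.96, from SCARNA11 at -6.40 to SCARNA12 at -0.17. The 2 guides of U1, SCARNA16 and SCARNA7, stood at -1.85 and -0.99. The 3 guides of U12, a spliceosomal RNA of the minor class, had a median of -0.78, from SCARNA20 at -3.05 to SCARNA17 at -0.23. The stretched signals of SCARNA11 and SCARNA20 lay under the background bound.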
